A study of Mus musculus with 24 samples.

Results

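The data shown here are the levels of 10 genes of the Bcl2 family, the proteins that decide at the outer mitochondrial membrane whether a stressed cell lives or dies, in dorsal root ganglia (DRGs) of mice after a lesion of the sciatic nerve. The genes were picked by name, as survival genes (*Bcl2*, *Bcl2l1*, *Mcl1*), pore-forming effectors (*Bax*, *Bak1*) and BH3-only genes (*Pmaip1*, *Bbc3*, *Hrk*, *Bcl2l11*, *Bid*), and every probe that carries their name on the array was used. Earlier results of these data were known when the genes were chosen. They are 10 of 27398 gene names and 18 of 41174 probes. The samples were L4 and L5 DRGs of adult male mice on a C57BL/6J background. *Nfil3* KO mice lack the transcription factor *Nfil3* in all tissues, since the floxed gene was deleted through a Cre under a human CMV promoter, and wildtype (WT) mice were their littermates. The 6 groups of 4 samples were control DRGs from the non-injured side, DRGs at day 2 post-lesion and DRGs at day 5 post-lesion, each in WT and in KO mice, and in the lesioned nerves the endings had been coaptated. Control DRGs thus came from operated animals. Which control and lesioned samples shared an animal, and whether DRGs of several animals were pooled, is not given in the sources used here.

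In this family, survival proteins such as BCL2 hold the effectors BAX and BAK1 in check. BH3-only proteins are switched on by stress signals, by transcription or by cleavage, and bind the survival proteins or the effectors directly. Once freed, the effectors open the outer mitochondrial membrane, cytochrome c leaves the mitochondrion and caspases are activated. Adult DRG neurons are known to tolerate an axon lesion far better than neurons of newborn animals, and *Bcl2*-related proteins are among the factors linked to that tolerance.

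The values are log2 intensities of single array channels, background-corrected and quantile normalized. Each gene is represented by its brightest probe, and the other probes follow separately. Intensities of different probes are not compared, apart from the summed signals of cell type markers. Changes are differences of log2 intensity from a limma model over all 24 samples, averaged over WT and KO mice unless stated, and p-values are adjusted over all 41174 probes. A gene is called changed when its adjusted p is under 0.05. Per sample, 54.5% to 72.3% of the probes stood well above background, and saturated spots were absent. The brightest probe was well above background in all 24 samples for 9 of the 10 genes. The exception was *Hrk*, with 8 of 24 samples. *Nfil3* itself lay between 8.44 and 11.08 in WT mice and between 2.82 and 7.59 in KO mice. Its probe was still well above background in 5 of 12 KO samples (1 control, 2 at day 2 and 2 at day 5), and whether it lies in the deleted part is not given in the sources used here. The highest KO value came from the library labelled KO control replicate 4, for which another label field gives day 5. Its *Pmaip1* level of 6.25 lay within the range of the other control DRGs, 6.00 to 6.69, and without it the number of called family members was 5 at day 2 and 10 at day 5, as with it. The samples are labelled as DRG neurons, but whole DRGs were dissected. All 8 neuron markers examined were well above background in every sample, as were all 9 macrophage markers. In such tissue, fewer cells of a type and less RNA per cell cannot be told apart.

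The probe sequences of *Bcl2*, *Bcl2l1*, *Bax* and *Bak1* below are shown because they report on the transcripts of a survival pair and an effector pair, and because the *Bcl2l1* and *Bak1* probes are needed later, where probes of a gene differ. They are 60 bases long and are written 5′ to 3′ in the direction of the transcript.
Bcl2, probe A_51_P380013, chr1:108608970-108609029, mm9, minus strand: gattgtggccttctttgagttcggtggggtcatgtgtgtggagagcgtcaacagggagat
Bcl2l1, probe A_52_P510877, chr2:152655185-152655244, mm9, minus strand: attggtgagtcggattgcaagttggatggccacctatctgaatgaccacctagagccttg
Bax, probe A_51_P254541, chr7:52721469-52721624, mm9, minus strand, spanning 156 bases of the genome with an intron between its parts: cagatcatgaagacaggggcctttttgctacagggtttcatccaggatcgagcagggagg
Bak1, probe A_52_P225207, chr17:27158232-27158291, mm9, minus strand: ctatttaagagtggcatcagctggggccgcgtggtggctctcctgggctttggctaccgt

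Lesioned and control DRGs differed in all 10 genes at day 5 and in 5 of them at day 2. At day 5, 7 genes rose and 3 fell, and at day 2, 3 rose and 2 fell. Over all gene names, 22.3% were called at day 2 (9.39% higher and 12.9% lower) and 23.3% at day 5 (10.2% higher and 13% lower). This share covers all 27398 names. Of these only 14554 beside *Pmaip1* were well above background in all samples, against 9 of the 10 genes, so the shares are not like for like. The median change of the 10 genes was 0.14 at day 2 and 0.39 at day 5, and that of all gene names was -0.02 and -0.03. The changes ranged from -0.73 to 1.87 at day 2 and from -0.72 to 2.17 at day 5, as seen in the plot of values per sample.

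**Figure D1:**
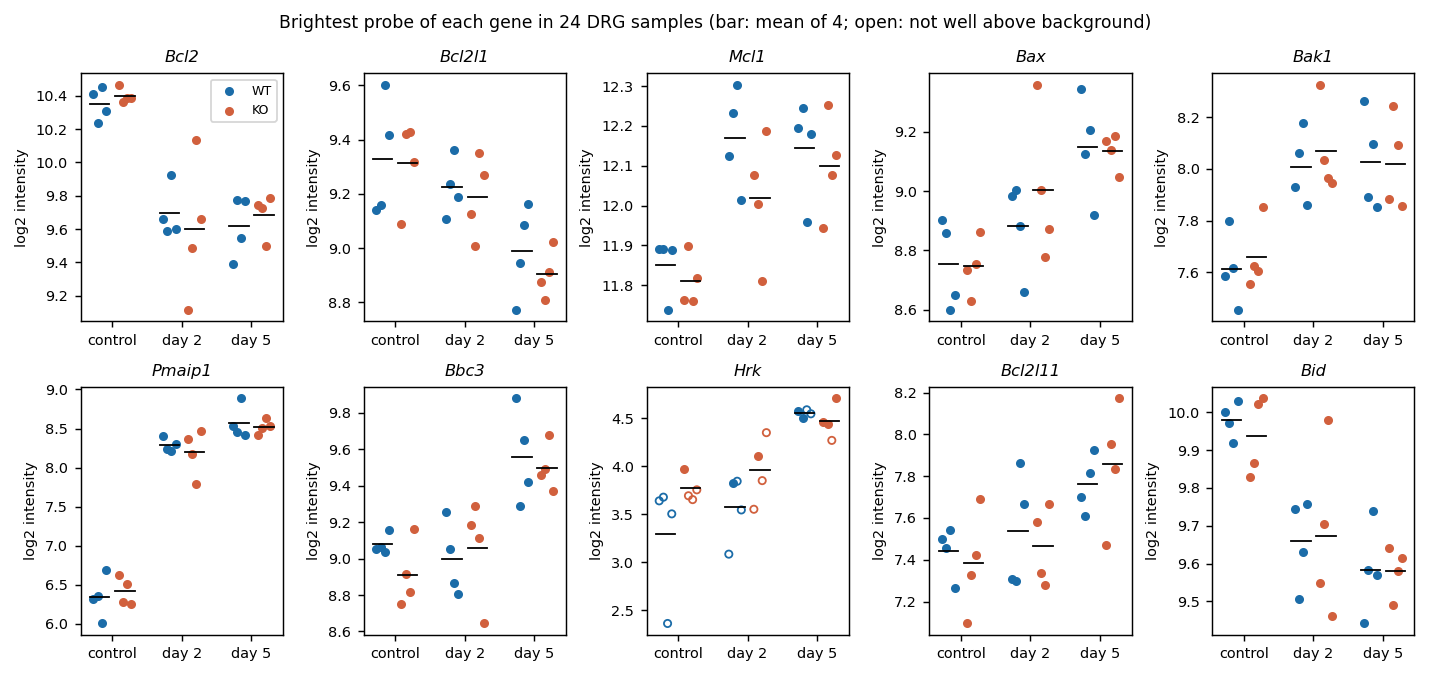
Log2 intensity of the brightest probe of each gene (y axis) in control DRGs and at day 2 and day 5 post-lesion (x axis). Each point is a sample, WT in blue and *Nfil3* KO in orange, bars are means of 4 samples, and open points were not well above background. *Pmaip1* rose from between 6.00 and 6.69 in control DRGs to between 8.41 and 8.89 at day 5, and WT and KO samples overlapped in each gene at each time.

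Among the survival genes the directions were split. *Bcl2*, the founding member, which protects neurons from trophic factor withdrawal, fell at both times. In WT mice it measured 10.41, 10.24, 10.45 and 10.31 in control DRGs, 9.66, 9.59, 9.93 and 9.60 at day 2 and 9.39, 9.78, 9.55 and 9.77 at day 5. In KO mice it measured 10.47, 10.36, 10.39 and 10.39 in control DRGs, 9.11, 9.49, 10.14 and 9.66 at day 2 and 9.74, 9.72, 9.50 and 9.78 at day 5. All 16 lesioned samples lay below all 8 controls, the closest being KO day 2 replicate 3 at 10.14 against the lowest control at 10.24. *Bcl2* was lower by 1.66-fold at day 2 (log2 change -0.73, SE 0.11, adjusted p = 4.4e-05) and by 1.65-fold at day 5 (log2 change -0.72, SE 0.11, adjusted p = 3.81e-05). Day 5 and day 2 differed by 0.01 (95% interval -0.22 to 0.23).

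*Bcl2l1* encodes BCL-XL, the survival protein on which mature neurons are thought to rely most. It ranged from 9.09 to 9.60 (median 9.37) in control DRGs, from 9.01 to 9.36 (median 9.21) at day 2 and from 8.77 to 9.16 (median 8.93) at day 5. It fell by 0.37 at day 5 (adjusted p = 0.00196), whereas the day 2 difference of -0.12 did not pass (adjusted p = 0.372). The control and day 5 samples overlapped. The step from day 2 to day 5 was -0.26 (95% interval -0.43 to -0.09, adjusted p = 0.103), and its call depended on the model, with an adjusted p of 0.0236 once dye was a covariate and 0.0264 with the replicate number as a block.

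*Mcl1*, a short-lived survival protein that is renewed through constant synthesis, went the other way. It ranged from 11.74 to 11.90 in control DRGs (median 11.85), from 11.81 to 12.30 at day 2 (median 12.10) and from 11.94 to 12.25 at day 5 (median 12.15). *Mcl1* rose by 0.26 at day 2 (adjusted p = 0.00687) and by 0.29 at day 5 (adjusted p = 0.00269), and at day 5 all 8 lesioned samples lay above all controls. These were changes of 1.20-fold and 1.22-fold.

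Both effectors rose. *Bax*, which moves from the cytosol to mitochondria when a cell is committed to die, ranged from 8.60 to 8.90 in control DRGs (median 8.75), from 8.66 to 9.36 at day 2 (median 8.93) and from 8.92 to 9.35 at day 5 (median 9.15). Its rise of 0.39 at day 5 passed the test (adjusted p = 0.00167), and every day 5 sample was above every control. The day 2 value of 0.19 was not called (adjusted p = 0.12). *Bak1*, the effector that sits in the mitochondrial membrane, ranged from 7.45 to 7.85 in control DRGs (median 7.61), from 7.86 to 8.33 at day 2 (median 7.999) and from 7.85 to 8.26 at day 5 (median 7.99). It had already risen at day 2, by 0.40 (adjusted p = 0.00178), with no overlap, and stood 0.39 above control at day 5 (adjusted p = 0.00204). The *Bak1* change rests on its brightest probe, as the probe comparison shows.

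The BH3-only genes held the largest change of the 10 genes and both genes that were called between day 2 and day 5. *Pmaip1*, which encodes NOXA, a partner of MCL1 first described as a p53 target, measured 6.31, 6.35, 6.00 and 6.69 in control DRGs of WT mice, 8.41, 8.23, 8.22 and 8.30 at day 2 and 8.53, 8.45, 8.89 and 8.41 at day 5. In KO mice it measured 6.62, 6.28, 6.51 and 6.25 in control DRGs, 8.37, 8.17, 7.79 and 8.47 at day 2 and 8.42, 8.51, 8.64 and 8.54 at day 5. The lowest lesioned sample, at 7.79, was more than 1 log2 unit above the highest control. *Pmaip1* was 3.65-fold higher at day 2 (log2 change 1.87, SE 0.11, adjusted p = 9.58e-11) and 4.50-fold higher at day 5 (log2 change 2.17, SE 0.11, adjusted p = 7.2e-12). The further step of 0.30 between the days was not called (adjusted p = 0.149). The size depended on the background correction and lay between 1.29 and 2.07 at day 2 and between 1.53 and 2.32 at day 5 over the alternatives.

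*Bbc3* encodes PUMA, which binds all survival proteins and acts downstream of p53 and of JNK and c-Jun in neurons deprived of trophic factors. In WT mice it measured 9.05, 9.07, 9.03 and 9.16 in control DRGs, 9.26, 9.06, 8.87 and 8.81 at day 2 and 9.88, 9.29, 9.65 and 9.42 at day 5. In KO mice it measured 8.75, 8.92, 8.82 and 9.16 in control DRGs, 9.18, 9.29, 9.12 and 8.64 at day 2 and 9.46, 9.49, 9.68 and 9.37 at day 5. The day 5 samples lay above all control and all day 2 samples, if narrowly, the lowest at 9.288 and the highest day 2 sample at 9.287. *Bbc3* was 0.03 above control at day 2 (SE 0.10, adjusted p = 0.88) and had risen by 0.54 at day 5 (SE 0.10, adjusted p = 5.55e-04). By dye, the day 2 difference was 0.25 within Cy3 and -0.19 within Cy5, and the day 5 difference was 0.58 and 0.49. The step between the days of 0.50 passed the test (adjusted p = 0.00724).

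*Hrk*, a BH3-only gene found mainly in the nervous system and induced in sympathetic neurons on loss of nerve growth factor, was dim. It was well above background in 0 of 4 control, 1 day 2 and 2 day 5 samples of WT mice, and in 1 control, 1 day 2 and 3 day 5 samples of KO mice. It measured 3.64, 3.68, 2.36 and 3.50 in WT control DRGs, 3.08, 3.83, 3.84 and 3.55 in WT DRGs at day 2 and 4.58, 4.50, 4.59 and 4.55 in WT DRGs at day 5. The KO values were 3.98, 3.69, 3.65 and 3.76 in control DRGs, 3.55, 4.11, 3.85 and 4.35 at day 2 and 4.46, 4.45, 4.27 and 4.72 at day 5. All day 5 samples were above all controls. *Hrk* had risen at day 5 (measured log2 change 0.98, SE 0.17, adjusted p = 1.65e-04), while the day 2 difference of 0.24 was not called (adjusted p = 0.361). The background mark differed by dye. WT day 5 replicate 3 (Cy5), at 4.59, lacked it, while WT day 2 replicate 2 (Cy3), at 3.83, carried it. Over all probes, a median of 70% per sample carried it in Cy3 and 63% in Cy5. Within Cy3 *Hrk* changed by -0.10 at day 2 and 0.75 at day 5, and within Cy5 by 0.58 and 1.21. With most samples near background the fold of *Hrk* is not settled, and its log2 change at day 5 lay between 0.18 and 1.39 over the alternatives, lowest where no background was subtracted or normexp was used. *Hrk* was, beside *Bbc3*, the other of 2 members called from day 2 to day 5, with a step of 0.74 (adjusted p = 0.0152). Over all gene names 3.33% were called for that step, and 2.32% were higher at day 5. Its call was lost with the processed signals (0.98, adjusted p = 0.0774), the median foreground (0.84, adjusted p = 0.0734) and loess normalization (0.71, adjusted p = 0.067).

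*Bcl2l11* encodes BIM, another BH3-only protein that neurons make on loss of trophic support. It ranged from 7.09 to 7.69 in control DRGs (median 7.44), from 7.28 to 7.87 at day 2 (median 7.46) and from 7.47 to 8.17 at day 5 (median 7.82). It rose by 0.40 at day 5 (adjusted p = 0.0122), with overlap, and differed by 0.09 at day 2 (adjusted p = 0.649). *Bid*, which caspase-8 cleaves and so ties death receptors to mitochondria, was the BH3-only gene that fell. It ranged from 9.83 to 10.04 in control DRGs (median 9.99), from 9.46 to 9.98 at day 2 (median 9.67) and from 9.44 to 9.74 at day 5 (median 9.58). *Bid* was lower by 0.29 at day 2 (log2 change -0.29, adjusted p = 0.0048) and by 0.38 at day 5 (log2 change -0.38, adjusted p = 4.45e-04), when all lesioned samples lay below all controls.

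**Figure D2:**
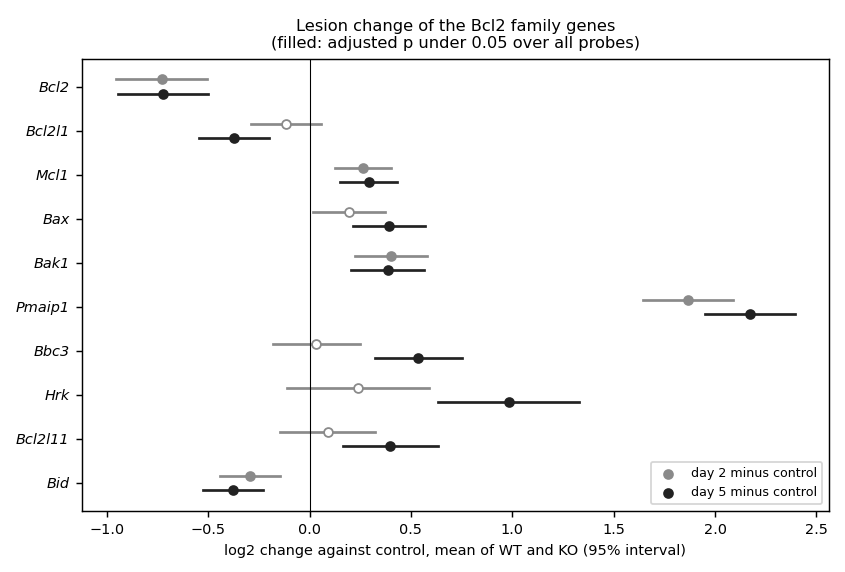
Log2 change against control DRGs (x axis), averaged over WT and KO mice, for the 10 genes (y axis) at day 2 in grey and day 5 in black, with 95% intervals; filled points have an adjusted p under 0.05. At day 5 all 10 points are filled, with *Bcl2*, *Bcl2l1* and *Bid* below 0, and *Hrk* and *Bbc3* lie apart between the days.

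The 24 samples lay on 3 slides, each scanned once. Genotypes were not balanced over them: at day 5, WT samples lay on slides 1 and 3 and KO samples on slides 1 and 2. The KO minus WT differences given below come from the model without slide. With slide as a block, none of the 10 genes was called between KO and WT mice either. The lesion changes were also taken within each slide. All 10 genes kept their direction at day 5 on all 3 slides. The day 5 changes ran from -0.88 to -0.56 for *Bcl2*, from 2.11 to 2.22 for *Pmaip1*, from 0.32 to 0.79 for *Bbc3* and from 0.72 to 1.34 for *Hrk*. At day 2, 4 of the 5 called genes kept their direction on every slide. *Bid* did not, with -0.37 to 0.03, and *Mcl1* reached 0.004 on 1 slide. Both the 0.03 and the 0.004 came from slide 1, which held a single day 2 sample, KO day 2 replicate 3. That sample was the day 2 sample nearest the controls for *Bcl2* (10.14), *Pmaip1* (7.79), *Bid* (9.98) and *Mcl1* (11.81), but not for *Bak1*.

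Several of the genes have more than 1 probe, which read different parts of the transcripts. For *Bcl2*, the probe printed above fell by 0.50 at day 2 (adjusted p = 1.57e-04) and 0.42 at day 5 (adjusted p = 7.09e-04), and the third probe gave -0.61 at day 2 (adjusted p = 0.00594) and -0.38 at day 5 (adjusted p = 0.0845). The second *Mcl1* probe rose by 0.55 and 0.41 (adjusted p = 1.96e-04 and 0.00237). For *Bcl2l1*, the printed probe gave 0.00 at day 2 and -0.26 at day 5 (adjusted p = 0.00773), and its step between the days was called (-0.26, adjusted p = 0.0417), while the third probe gave 0.01 and -0.12 and was not called.

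*Bak1* was the gene whose probes parted. The brightest probe rose as given above, whereas the printed probe, well above background in all 24 samples, gave -0.11 at day 2 (95% interval -0.54 to 0.31) and -0.15 at day 5 (95% interval -0.57 to 0.28), with samples from 6.04 to 7.07 in control DRGs and from 6.01 to 6.93 at day 5. The printed probe separated by slide, with all samples of slide 3 between 6.80 and 7.07 and all samples of slides 1 and 2 between 5.86 and 6.31. With slide as a block it gave -0.11 at day 2 (95% interval -0.23 to 0.02) and -0.05 at day 5 (95% interval -0.17 to 0.07), while the brightest probe gave 0.37 at both times (adjusted p = 0.00201 and 0.00116). With probes averaged per gene and no block, *Bak1* changed by 0.14 (adjusted p = 0.346) and 0.12 (adjusted p = 0.468) and was no longer called. With probes averaged and slide as a block, an alternative added after seeing the data, the changes were 0.13 (adjusted p = 0.0727) and 0.16 (adjusted p = 0.0201). The averaged value thus passed at day 5, but it combines a probe that rose with a probe whose interval spans 0. Averaging took *Bcl2l11* at day 5 to 0.28 (adjusted p = 0.29), and to 0.29 with slide as a block (adjusted p = 0.281). Its other probes were well above background in 9 and 0 of 24 samples, with day 5 differences of 0.23 and 0.22 that were not called.

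**Figure D3:**
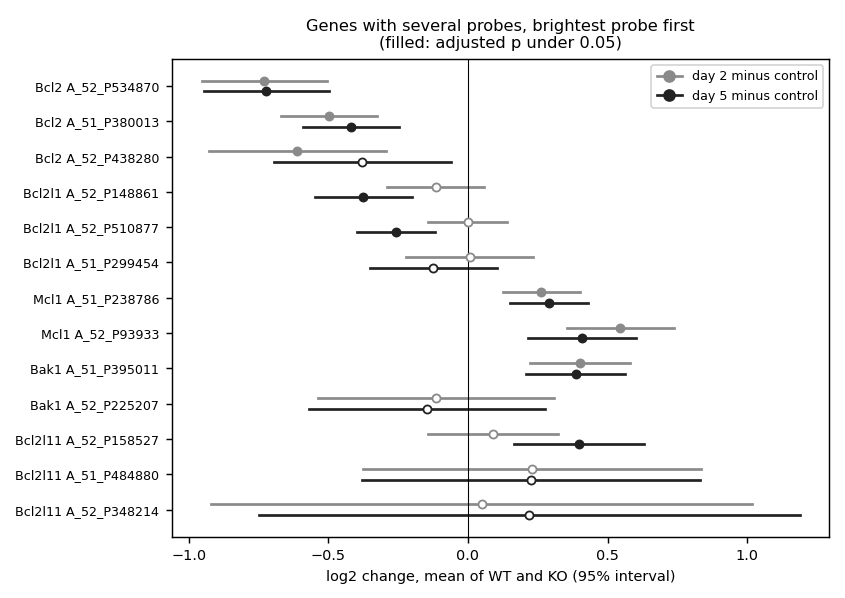
Log2 change against control DRGs with 95% interval (x axis), averaged over WT and KO mice, for each of the 13 probes of the genes with more than 1 probe (y axis), at day 2 in grey and day 5 in black; filled points have an adjusted p under 0.05. The *Bcl2* and *Mcl1* probes point the same way, whereas the *Bak1* probes lie on either side of 0 (0.39 and -0.15 at day 5, from the model without slide).

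The comparison of KO with WT mice asked whether these genes depend on *Nfil3*, which was itself higher in lesioned than in control DRGs of WT mice (8.44 to 9.03 in control DRGs, 10.34 to 10.76 at day 2 and 10.64 to 11.08 at day 5). None of the 10 genes was called between KO and WT mice in control DRGs, at day 2 or at day 5. Over all gene names, 0%, 0.0146% and 0.0109% were called in these comparisons. None of the 30 differences had an unadjusted limma p under 0.05, the smallest being 0.0585, and every adjusted p rounded to 1. Apart from *Hrk*, the differences lay between -0.17 and 0.12 (SE 0.09 to 0.16), with 95% intervals that reached no further than -0.47 and 0.43. With 4 samples a group, true differences inside the interval of a gene are not excluded.

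*Hrk* had the widest intervals. KO minus WT was 0.47 in control DRGs (95% interval -0.02 to 0.97), 0.39 at day 2 (95% interval -0.10 to 0.88) and -0.08 at day 5 (95% interval -0.57 to 0.41), on values mostly not well above background. The library WT control replicate 3, at 2.36, was the lowest of the 24, and without it the control difference was 0.16. Without background subtraction it was 0.02. For *Pmaip1*, the lesion change was 1.95 in WT and 1.78 in KO mice at day 2, and 2.23 and 2.11 at day 5. For *Bcl2* it was -0.66 in WT and -0.80 in KO mice at day 2, and -0.73 and -0.71 at day 5. The interaction of time and genotype called none of the 10 genes, with unadjusted p from 0.224 for *Hrk* to 0.923 for *Bak1*, and 0% of all gene names (577 of them at an unadjusted p under 0.05).

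**Figure D4:**
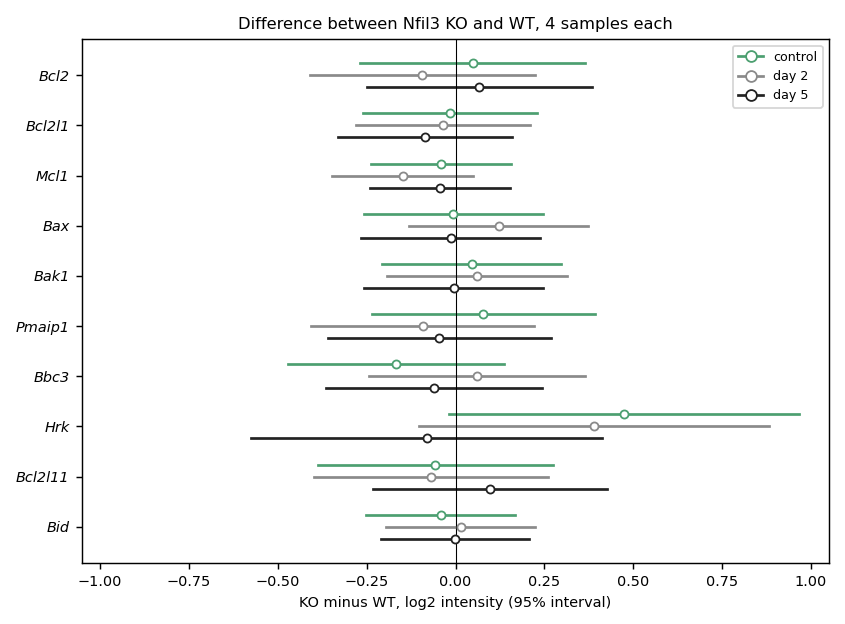
KO minus WT difference in log2 intensity with 95% interval (x axis) for the 10 genes (y axis) in control DRGs in green, at day 2 in grey and at day 5 in black, 4 samples per group. Every interval spans 0, and the widest are those of *Hrk* (0.47 in control DRGs, -0.02 to 0.97).

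The promoters were read for short motifs, since *Nfil3* and CREB are factors that bind related sites and c-Jun binds AP-1 sites. RefSeq windows of GRCm38.p6, 250 bases before to 50 after a start site, were given for 9 of the 10 genes (14 windows). No window was given for *Pmaip1*, the gene with the largest change, so its promoter was not searched. Searched on both strands, the NFIL3 site TTACGTAA, the full CRE TGACGTCA and the AP-1 site TGANTCA had no match in these windows. They occur in 0.119%, 1.79% and 7.81% of all 32851 windows. At such shares 14 windows would hold few or no matches, so their absence says little about these genes. The shorter TGACG, the core that makes up one side of the full CRE, occurred in 4 of 14 windows against 20.8% of all windows, in *Bcl2*, *Mcl1*, *Hrk* and *Bbc3*, a share too close to that of all windows to set these genes apart. The 120 bases before the start site are printed for *Bcl2*, *Hrk* and *Bbc3*, where the match lay upstream, with TGACG or its reverse complement in capitals. A match is a run of letters and not a site shown to be bound.
Bcl2, chr1:106714291-106714410, minus strand: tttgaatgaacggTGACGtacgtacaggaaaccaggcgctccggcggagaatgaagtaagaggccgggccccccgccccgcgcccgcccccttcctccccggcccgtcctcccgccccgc
Hrk, chr5:118169644-118169763, plus strand: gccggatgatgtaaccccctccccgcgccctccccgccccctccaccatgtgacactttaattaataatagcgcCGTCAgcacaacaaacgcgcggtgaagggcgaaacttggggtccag
Bbc3, chr7:16309463-16309582, plus strand: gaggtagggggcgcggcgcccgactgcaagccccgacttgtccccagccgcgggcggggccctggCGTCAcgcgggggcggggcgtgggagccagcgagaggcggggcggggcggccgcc

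Beyond the 10 genes, 14 of 16 further family members were on the array by name. At day 2, 0 of them rose and 3 fell, and at day 5, 4 rose and 4 fell, with medians of -0.03 and -0.02. Over all gene names, 22.3% were called at day 2 and 23.3% at day 5, so the day 2 count of this list lies near that share. *Bcl2a1b*, a survival gene of blood cells, stood at 0.01 at day 2 and rose by 1.35 at day 5 (adjusted p = 4.43e-06), and *Bcl2a1c* rose by 0.96 at day 5 (adjusted p = 0.00155). The copies of *Bcl2a1* are near-identical, so which of them the probes read is uncertain. *Bad*, a BH3-only gene, was lower by 1.10 at day 5 on its brightest probe (log2 change -1.10, adjusted p = 5.6e-04), but its other probe gave -0.08 (adjusted p = 0.784). *Bcl2l14* fell by 0.94 at day 5 (adjusted p = 6.26e-04), and its other probe by 0.95 (adjusted p = 0.00139).

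Of 18 genes downstream of the family (caspases, their inhibitors and proteins released from mitochondria), 7 rose and 1 fell at day 2, and 8 rose and 3 fell at day 5. *Casp6*, a caspase tied to axon degeneration, rose by 1.70 and 1.48 (adjusted p = 2.24e-10 and 1.29e-09). *Birc5*, an inhibitor of apoptosis that also serves cell division, rose by 0.75 and 0.61 (adjusted p = 1.74e-06 and 1.69e-05), and *Casp8*, the caspase that cleaves BID, rose by 0.75 at day 5 (adjusted p = 0.00129). Of 15 upstream regulators, 2 rose and 3 fell at day 2, and 3 rose and 7 fell at day 5. Beside both lists, 22.3% of all gene names were called at day 2 (9.39% higher and 12.9% lower). At day 5 that share was 23.3% (10.2% higher and 13% lower). *Jun* rose by 1.68 and 1.72 (adjusted p = 2.39e-11 and 1.13e-11), and *Ddit3*, which encodes the stress factor CHOP, by 0.47 and 0.84 (adjusted p = 6.59e-04 and 7.13e-07). *Mapk10*, the neuronal JNK kinase, fell by 0.48 and 0.45 (adjusted p = 0.0232 and 0.0336), and *Ngfr*, the p75 neurotrophin receptor, fell by 0.50 at day 5 (adjusted p = 0.0127), where its other probe gave -0.36 (adjusted p = 0.0887). No gene of these 3 lists was called between KO and WT mice.

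Cell type markers moved at the same times. The share of all gene names called was 22.3% at day 2 and 23.3% at day 5. Of 9 macrophage markers, 7 rose at day 2 and all 9 at day 5 (0 fell), by a median of 0.68 and 1.69. Their summed linear signal was 2104 to 3644 in control DRGs, 2857 to 5455 at day 2 and 7040 to 10560 at day 5. Of 8 neuron markers, 6 fell at day 2 (0 rose), and 4 fell and 1 rose at day 5. Their summed signal was 328900 to 373000 in control DRGs, 290400 to 349600 at day 2 and 318400 to 361700 at day 5. Such a sum weighs the brightest probe most, here that of *Uchl1*, which was not called (0.02 at day 2 and 0.11 at day 5). Of 4 markers of dividing cells, 2 rose at each time, and their summed signal was 127 to 248 in control DRGs, 217 to 525 at day 2 and 186 to 613 at day 5. Among these markers, *Cdk1* and *Ccnb1* were well above background in only 3 and 7 of 24 samples. Of 4 Schwann cell markers, 1 rose at day 2 and 0 were called at day 5, and of 5 satellite glia markers, 2 rose and 2 fell at day 2 and 2 rose and 1 fell at day 5. Of 6 lymphocyte markers, 1 rose at each time, and of 4 markers of fibroblasts and endothelium, 1 rose at day 2 and 0 were called at day 5. The part of these shifts in the changes of the Bcl2 family was not tested.

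**Figure D5:**
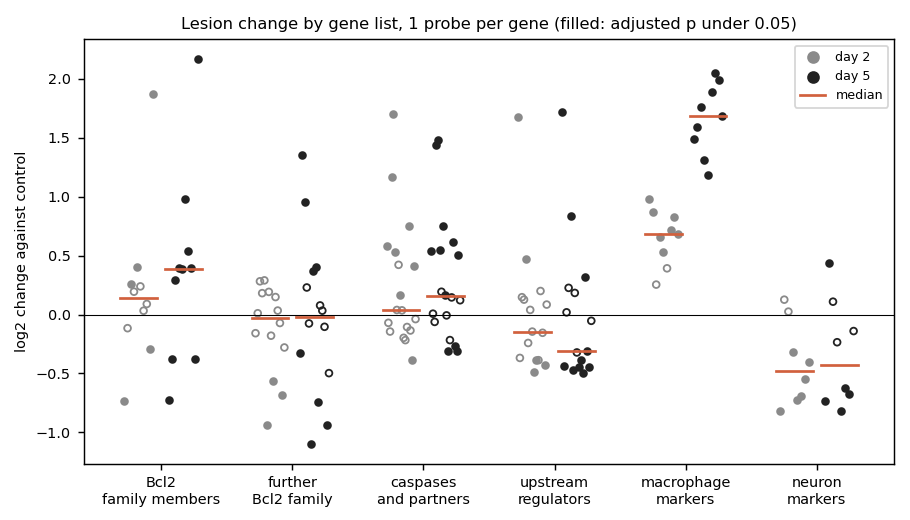
Log2 change against control DRGs (y axis), averaged over WT and KO mice, for the 10 genes, 3 lists of genes of the same pathway and 2 lists of cell type markers (x axis), at day 2 in grey and day 5 in black. Each point is the brightest probe of a gene, filled where the adjusted p is under 0.05, and the orange line is the median (0.14 and 0.39 for the 10 genes, 0.68 and 1.69 for macrophage markers).

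Across the 24 samples, *Bcl2* ran with *Bid* (Pearson r 0.82) and against *Pmaip1* (r -0.90), and *Bax* ran with *Bak1* (r 0.78). Among 14554 genes well above background in all samples, the patterns most like that of *Pmaip1* were those of *Lgals3*, *Prc1* and *Sdc1* (r 0.99 each), and those most like *Bcl2* were *Hip1* (r 0.95), *Glcci1* (r 0.94) and *Trib2* (r 0.94). *Lgals3*, which encodes galectin-3, changed by 1.88 and 2.08 at day 2 and day 5, close to the 1.87 and 2.17 of *Pmaip1*. These correlations follow the 3 time points that the samples share and are given as a description.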

How the data were processed

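The authors hybridized RNA of L4 and L5 DRGs to 12 Agilent 4x44K mouse arrays on 3 slides, with a different sample in each channel, and extracted the scans with Agilent Feature Extraction. The deposited intensity columns hold the foreground and background of each spot and channel, without normalization. Following the study's methods, Edwards background correction and quantile normalization over the 24 channels were applied. The mean foreground and median background were used, control spots and outlier-marked spots were left out, values were put on a log2 scale and spots of a probe were averaged. A probe was taken as well above background where 50% or more of its spots carried that mark.

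Groups were taken from the sample titles. With limma 3.58.1 in R 4.3.3, 41174 probes were modelled by lmFit and eBayes with 6 group means and no block, and p-values were adjusted by Benjamini-Hochberg over all of them at a threshold of 0.05. The code was tested on simulated data. Depth on these arrays is signal over background, and the number of samples limits the precision. Samples are described as independent replicates, but their animals are not listed, so p-values measure the spread between samples. Same-numbered samples were not treated as pairs: correlations of their deviations from the group means, over all probes, ran from -0.06 to 0.20. Numbers 1 and 2 carried Cy3 and numbers 3 and 4 Cy5 in every group.

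The members and gene lists were chosen with earlier results of these data known. Genes named beyond the members were, per list, at most 4 called genes with the largest change that were well above background in at least 12 samples, and the 3 genes most like the member with the largest rise and the largest fall at day 5. Coordinates of probes follow the array annotation (mm9), and promoters were taken from RefSeq (GRCm38.p6). The alternatives were other background corrections, foreground, normalization, filter and probe choices, dye, slide, array, array partner and replicate terms, a variance trend, each sample left out and, added after seeing the data, averaged probes with slide as a block. Amino acid sequences were not used here. A gene that the naming rule picks is not reported here.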

Additional observations from a re-analysis of the deposited data

Results flagged for a closer look

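In WT control DRGs, replicate 3 stood apart from the other 3 samples for *Mcl1*, at 11.74 against 11.89 for the nearest, and for *Hrk*, at 2.36 against 3.50 for the nearest. The gap took 0.977 and 0.868 of the group's range, above Dixon's critical value for 4 samples. These were 2 of 60 groups examined, and chance gives about 1 in 20. The *Hrk* value was not well above background. No member was called for a difference between genotypes in its lesion change, and the widest day 5 interval was that of *Hrk* (-0.56, 95% interval -1.25 to 0.14).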

How the results depend on the processing

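The counts of called members were recomputed under 15 alternatives and with each of 24 samples left out. At day 2 the count was 5, and 4 to 5 under the alternatives. At day 5 it was 10, and 8 to 10. From day 2 to day 5 it was 2, and 1 to 3, with 1 under the processed signals, the median foreground and loess with Aquantile normalization, where *Hrk* was lost. The KO minus WT and interaction counts were 0 throughout. With each sample left out, the counts were 5 to 5 at day 2, 10 to 10 at day 5 and 2 to 2 between the days. With the replicate number as a block, the counts were 5, 10 and 3, and 0 for KO minus WT and the interaction. The third gene called from day 2 to day 5 was *Bcl2l1* (-0.26, adjusted p = 0.0264). Correlations between samples were taken on deviations from the group means over all probes. For 11 of 24 samples, the best correlated sample of the other groups carried their own number, which 5 of those 20 samples carry. The numbers also follow the dye (1 and 2 Cy3, 3 and 4 Cy5), and the labels give no pairing by number. No member reversed a called direction. Of single members, 8 values lost and 7 gained a call. Beside those given above, the step from day 2 to day 5 was gained by *Pmaip1* without background subtraction (0.26, adjusted p = 0.0403) and with normexp (0.25, adjusted p = 0.0495), by *Bcl2l1* with probes averaged (-0.21, adjusted p = 0.0265, and -0.20, adjusted p = 0.025, with slide as a block) and by *Bcl2l11* with slide as a block (0.39, adjusted p = 0.0362). The median of all probes moved by less than 0.1 under each scaling. Dim probes limit *Hrk* and the weaker *Bcl2l11* probes, and the cause of the other shifts was not tested.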
